A study of Rattus norvegicus with 6 samples.

Results

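The proteasome genes of rat liver were examined here as a set of 42 named genes: the subunits of the 20S core and of the 19S cap, the 3 immunoproteasome subunits, the assembly chaperones of the cap, the activators PA28 and PA200, and the maturation factor Pomp. They were chosen by gene name, from textbook membership of the complex, and matched to array probes through RefSeq accessions. Of the 42 genes, 41 had a probe on the array (Psmd11 had none that was matched), out of 11235 named genes tested. All 69 probes of these 41 genes were well above background on all 6 arrays, so none entered the test through 1 group only.

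The liver samples came from male Sprague-Dawley (Crl:CD(SD)) rats bought at 5 weeks of age and kept on a basal diet, with 3 animals given the vehicle corn oil and 3 given Thiobis(6-tert-Butyl-m-Cresol) in its 4,4' form, here TBBC, a sulfur-bridged phenolic antioxidant used in rubber and plastics. The dose was 300 mg/kg/day, for 9 weeks per the treatment protocol, whereas the description of the series gives 28 days as the time of measurement, so the true length of dosing is unsettled. Total RNA of each animal was hybridised with Cy3 to 1 Agilent array. Only 1 dose was given, and whole liver was used, so a difference may come from any cell type in it.

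The proteasome is the main protease of the cytosol and nucleus. Its 20S core is a barrel of stacked rings, in which the alpha subunits (Psma genes) form the gates and the beta subunits (Psmb genes) hold the cutting sites. The 19S cap recognises ubiquitin chains, removes them (lid, Psmd genes) and feeds the unfolded protein through a ring of ATPases (Psmc genes) into the core. In mammalian cells the transcription factor NRF1 (gene Nfe2l1) is known to raise the subunit genes together through antioxidant response elements in their promoters when proteasome activity is short, and interferon gamma raises the immunoproteasome subunits and PA28.

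The 3 vehicle arrays shared 1 slide and scan and the 3 TBBC arrays another, so slide and treatment cannot be told apart in any comparison below. Vehicle replicate 2 stood apart in signal, with a 75th percentile of processed intensity of 465.2 against 577.9 to 638.2 on the other arrays and a coefficient of variation among spike-in spots of 10.2% against 3.05% to 4.18%. Values without it are given for the set and for some of the genes. Hepatocyte markers were present throughout: all 12 of 12 were tested, none was called, and their summed signal was 5960 to 7150 times the array's 75th percentile with vehicle and 5600 to 5790 times with TBBC. The TBBC sums were thus lower, without overlap. Of the 12 differences 6 were positive and 6 negative, with 1 higher and 3 lower at an unadjusted p under 0.05 in limma. Biliary markers, 5 of 6 tested, summed to 1.13 to 1.30 with vehicle and 2.77 to 4.15 with TBBC, without overlap. Of these, 4 differences were positive and 1 marker, Epcam, was called higher (1.83 ± 0.21, adjusted p = 0.0147). Epcam had the highest signal of them on every array, so it weighs most in the sum. It was the only one whose groups did not overlap, and Krt7 differed by -0.33. Cftr was well above background on 1 vehicle array and 3 TBBC arrays, so it was kept through the TBBC group only. The sums of endothelial markers (4 of 7 tested; 27.5 to 49.9 and 35.8 to 40.5) and stellate and matrix markers (8 of 8 tested; 26.8 to 36.2 and 26.2 to 34.3) overlapped between groups, and none of these was called. The part of any of these cells in the proteasome values was not tested. Across all 29326 features tested, 492 were called higher and 410 lower with TBBC (limma, Benjamini-Hochberg adjusted p under 0.05). Of the called features 54.5% were higher, against 70.9% when each array was centred on its median and 80.7% when arrays were scaled on spike-in spots.

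Proteasome transcripts were mostly higher in the livers of TBBC-treated rats, by a modest amount. Of the 41 genes tested, 40 had a positive difference (TBBC minus vehicle, in log2 signal relative to the array's 75th percentile) and 1, the chaperone gene Psmd10, a negative one. The median difference was 0.36, a 1.28-fold level, with a range from -0.26 to 0.78. Past the adjusted threshold, 3 genes rose (Psma7, Psmb6 and Psmd14), 0 fell and 38 were not called, where 1.68% of all features were called higher and 1.4% lower. At an unadjusted p under 0.05, 30 of the 41 were higher and 0 lower, where 9.48% of all features were higher. In 37 of the 41 genes every TBBC array was above every vehicle array, a separation that 12.3% of all features showed. The groups overlapped for Psmb8, Psmd9 and Psme3, and for Psmd10 every TBBC array was below every vehicle array. A separation below was shown by 5502 of all 29326 features.

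The features as a whole did not share this shift. Their median difference was -0.06 and 42.4% were positive. Among the 8935 features whose vehicle mean lay in the range of the proteasome genes, the median was -0.02 and 46.7% were positive, and 1506 of them had every TBBC array above every vehicle array. The 10th and 90th percentiles were 0.21 and 0.63 for the proteasome genes and -0.49 and 0.42 for all features. In adjusted p, 3 proteasome genes lay under 0.05, 10 from 0.05 to under 0.1, 16 from 0.1 to under 0.2, and 12 higher than that. Their standard errors (median 0.116, against 0.158 for all features) were a sizeable part of such small differences. The sign of the 41 differences was the same under each scaling tried. Spike-in scaling moved the median of all features to 0.15 and that of the proteasome genes to 0.56; it adds 1 constant per array, so the gap of 0.42 between these medians is fixed by construction.

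None of the 3 calls survived the loss of an array. With any 1 of the 6 arrays left out, 0 proteasome genes were called by limma, where 0.263% to 0.723% of all features were called higher. The lowest adjusted p among the proteasome genes ranged from 0.055 (without TBBC replicate 1) to 0.117 (without TBBC replicate 2). At an unadjusted p under 0.05, 17 to 28 of them were higher. The median difference then ranged from 0.31 to 0.41. Without vehicle replicate 2 it was 0.39, with 26 genes higher at an unadjusted p under 0.05. The share of all features at that unadjusted p is not given for these fits, so these counts stand without a background.

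**Figure D1:**
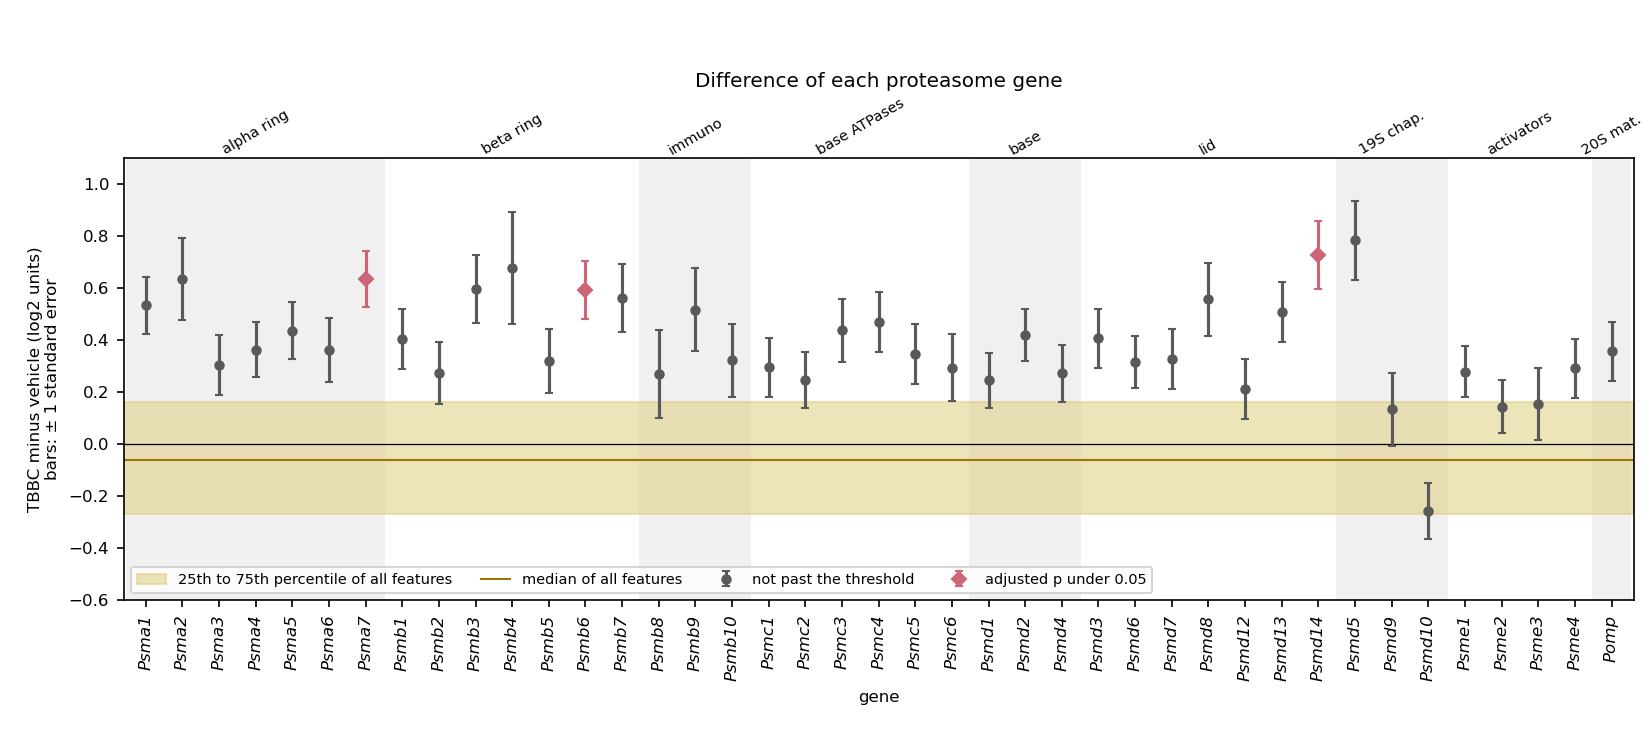
Difference of each of 41 proteasome genes, TBBC minus vehicle in log2 units (points; bars, 1 standard error of the limma fit), with genes on the horizontal axis grouped by their place in the complex (19S chap., assembly chaperones of the cap; 20S mat., the maturation factor Pomp). Diamonds mark the 3 genes with an adjusted p under 0.05, the line the median of all features (-0.06) and the band their 25th to 75th percentile (-0.27 to 0.16); Psmd10 is the only gene below zero.

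The shift was not equal on the 3 TBBC arrays. Relative to the vehicle mean of each gene, the 41 genes had a median of 0.26 on TBBC replicate 1, 0.41 on replicate 2 and 0.38 on replicate 3. The vehicle replicates stood at -0.03, 0.04 and 0.00. TBBC replicate 1 was the lowest of the TBBC arrays in 32 of 41 genes, against 35.4% of all features, and TBBC replicate 2 the highest in 26, against 38.5%. Among vehicle arrays, replicate 1 was the lowest in 21 genes (29.6% of all features) and replicate 2 the highest in 21 (40.3%).

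**Figure D2:**
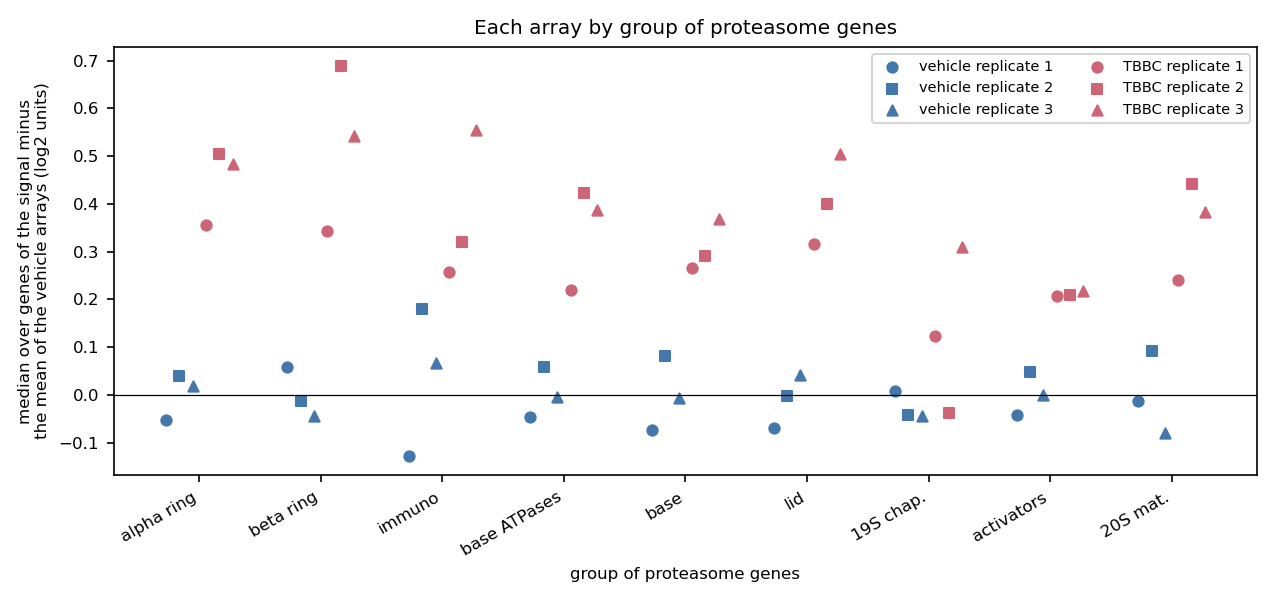
Each array by group of proteasome genes: the vertical axis gives the median over the genes of a group of the log2 signal minus the vehicle mean of the gene, and each point is 1 array (circles, squares and triangles for replicates 1, 2 and 3). In the alpha ring the TBBC arrays stand at 0.36, 0.50 and 0.48 against -0.05, 0.04 and 0.02 for vehicle; among the assembly chaperones of the cap TBBC replicate 2 lies at -0.04, inside the vehicle range.

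Promoter letters are shown because NRF1 acts through them. The RefSeq promoter table (assembly GRCr8, 250 bases before to 50 after the annotated start) held 38 of the 42 genes; Psma7, Psmd6, Psmd12 and Psmd14 had no entry. The core of the antioxidant response element, TGACNNNGC on either strand, was found in 8 of 38 windows (21.1%), against 12.1% of 33469 promoters of that length and 14.5% of the 9684 promoters of tested genes. The matches are printed below in capitals with 8 bases on each side, read 5′ to 3′ on the strand that carries TGAC. Positions are counted from the annotated start, negative upstream, for the first base of the match in the window read along the gene. Psmb6 is the gene among these that passed the test, Psmb5 and Psmb2 are other beta subunits, and Psmd9 had the smallest difference of all 41 genes. The other called genes, Psma7 and Psmd14, had no window to search, so matches and calls cannot be compared.
Psmb6 at -24: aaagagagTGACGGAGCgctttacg
Psmb5 at -60: tgaagctgTGACGTCGCggcgttgc
Psmb2 at -68: cgcgccaaTGACCGGGCggtcgcat
Psma3 at -12, opposite strand: catggtgcTGACCCGGCaggccaca
Psmd1 at -165: cagatctaTGACCTCGCgagaatta
Psmd1 at 23: gaggggacTGACTGAGCagcgcacc
Psmd3 at 14, opposite strand: ccgcacgaTGACCGAGCagctgcaa
Psmd9 at -124, opposite strand: ttttcagaTGACCCGGCagagctaa
Psmd9 at -77: gtttccggTGACCTCGCcccacctc
Psme4 at -55, opposite strand: cgaggaggTGACCCAGCggctttct

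A match to these letters did not go with a larger difference. The 8 genes with a match had a median difference of 0.30, ranging from 0.13 (Psmd9) to 0.59 (Psmb6), and the 29 tested genes with a window and no match had 0.36. CCAAT boxes (CCAAT, either strand) were found in 19 of 38 windows (50%), against 37.5% of all promoters, with median differences of 0.36 in genes with a box and 0.35 in those without. Such matches are descriptions of letters in a window and say nothing of a factor's binding in these livers.

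In the alpha ring, whose subunits form the outer gate of the core, all 7 genes had a positive difference and all TBBC arrays were above all vehicle arrays for each; 1 was called higher. The median was 0.43. Psma7, a subunit of this ring, rose: in replicate order, its signal was 5.24, 5.21 and 5.24 with vehicle and 5.74, 5.93 and 5.92 with TBBC. All values below are in this order. The vehicle arrays lay within a few hundredths of each other, and the lowest TBBC array was 0.50 above the highest of them. This is a difference of 0.63 ± 0.11 (standard error, n = 3 and 3), 1.55-fold, with an adjusted p = 0.0379 in limma, rank 576 of 29326 features by p.

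Psma2, another ring subunit, had a difference of about the same size that was not called, 0.63 ± 0.16 (adjusted p = 0.0871). Its signal was 3.34, 3.72 and 3.83 with vehicle and 4.17, 4.37 and 4.26 with TBBC, and vehicle replicate 1 was low. Psma3 had the smallest difference of the ring, 0.30 ± 0.11 (adjusted p = 0.19). On its probe the arrays read 4.57, 4.41 and 4.66 with vehicle and 4.80, 4.92 and 4.82 with TBBC, so the groups were separate by 0.14. Psma1 just missed the threshold at 0.53 ± 0.11 (adjusted p = 0.0568), and a second probe of it gave 0.60. The differences of Psma5, Psma4 and Psma6 were 0.43, 0.36 and 0.36.

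**Figure D3:**
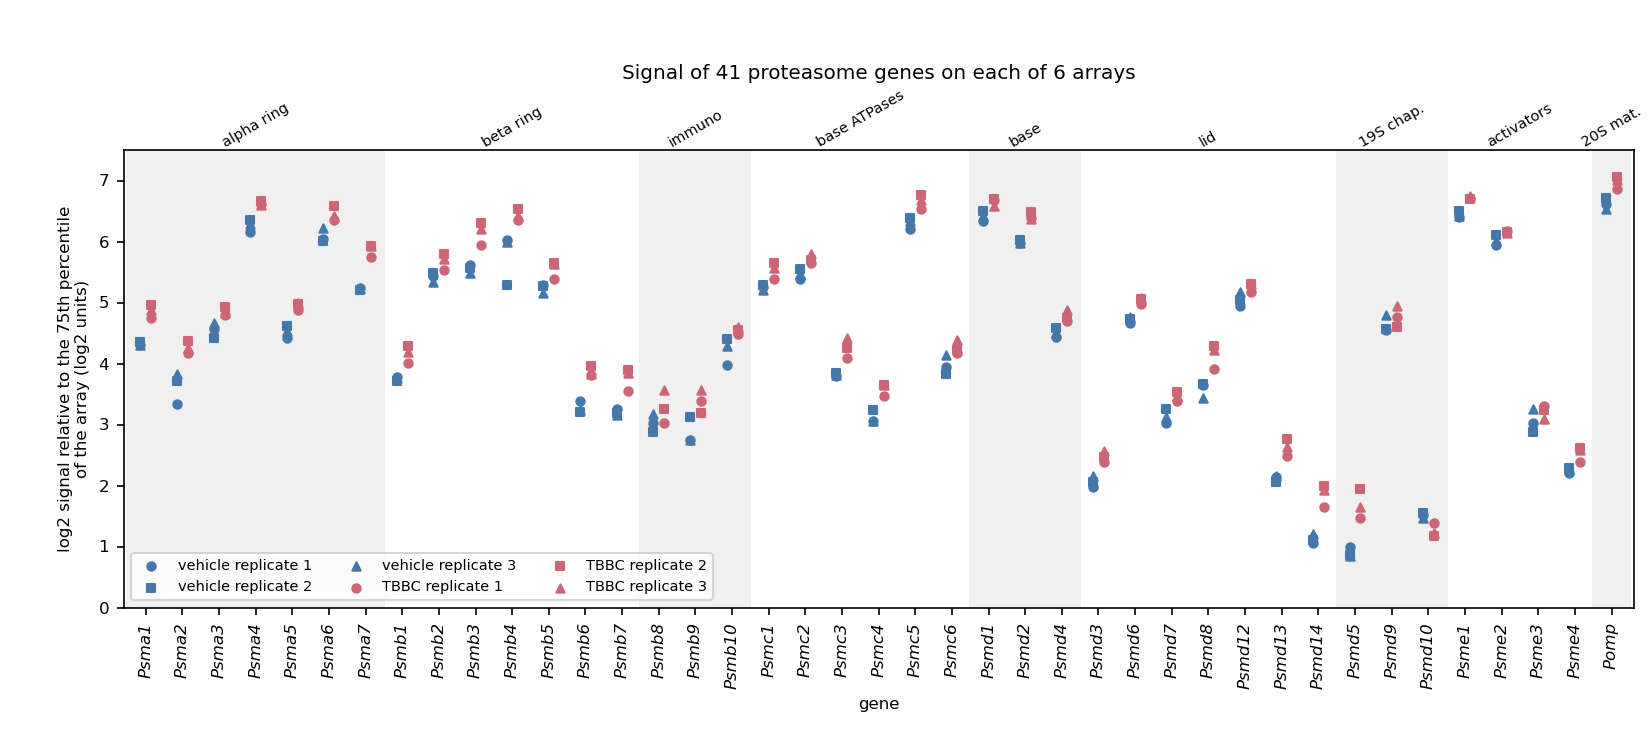
Log2 signal relative to the array's 75th percentile (vertical axis) of 41 proteasome genes (horizontal axis) on the 3 vehicle arrays (blue) and the 3 TBBC arrays (red), 1 point per array. Levels of different genes come from different probes and are not to be compared; within a gene the red points lie above the blue ones for 37 genes, and the low blue square of Psmb4 is vehicle replicate 2 at 5.29.

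The 7 constitutive genes of the beta ring had the highest median difference of the groups with more than 1 gene, 0.56, and were positive with separate groups in each case; 1 was called higher. Psmb6, the subunit with caspase-like cutting activity, rose from 3.38, 3.20 and 3.24 on the vehicle arrays to 3.81, 3.96 and 3.82 on the TBBC arrays. All TBBC arrays were above all vehicle arrays by at least 0.43. The difference was 0.59 ± 0.11, 1.51-fold, with an adjusted p = 0.0474 in limma. Its promoter holds the antioxidant response element letters close to the start, here in capitals within the 250 bases before it (GRCr8, chr10:55737638-55737887, plus strand):
Psmb6 promoter: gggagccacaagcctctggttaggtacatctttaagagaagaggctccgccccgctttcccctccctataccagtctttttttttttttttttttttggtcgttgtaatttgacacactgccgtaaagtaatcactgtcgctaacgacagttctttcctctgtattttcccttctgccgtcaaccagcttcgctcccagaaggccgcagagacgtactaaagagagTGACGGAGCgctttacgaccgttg

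Psmb7 and Psmb5 carry the trypsin-like and chymotrypsin-like activities. Psmb7 read 3.26, 3.19 and 3.16 with vehicle and 3.55, 3.90 and 3.84 with TBBC, a difference of 0.56 ± 0.13 (adjusted p = 0.0758). Psmb5 read 5.28, 5.27 and 5.15 with vehicle and 5.38, 5.65 and 5.63 with TBBC, a difference of 0.32 ± 0.12 (adjusted p = 0.191). For both genes TBBC replicate 1 was the lowest of its group, and for Psmb5 it lay only 0.10 above the highest vehicle array.

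Of the beta subunits without a cutting site, Psmb4 had the largest difference, 0.68 ± 0.21 (adjusted p = 0.138). The signal was 6.03, 5.29 and 5.99 with vehicle and 6.36, 6.54 and 6.42 with TBBC. Vehicle replicate 2 was low on this probe and decided the size: without it the difference was 0.44 (adjusted p = 0.165), and the gene's other probe, on which replicate 2 was not low, gave 0.48. Psmb2 had the smallest difference, 0.27 ± 0.12 (adjusted p = 0.235), with 5.43, 5.48 and 5.33 on the vehicle arrays and 5.53, 5.79 and 5.72 on the TBBC arrays. Psmb3 and Psmb1 differed by 0.60 (adjusted p = 0.067) and 0.40 (adjusted p = 0.116).

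The immunoproteasome subunits Psmb8, Psmb9 and Psmb10 take the places of Psmb5, Psmb6 and Psmb7 in cells exposed to interferon gamma and in lymphoid cells. Their differences were positive but none was called, with a median of 0.32. Psmb9 differed most, by 0.52 ± 0.16 (adjusted p = 0.134), with 2.74, 3.12 and 2.75 on the vehicle arrays and 3.39, 3.19 and 3.57 on the TBBC arrays. Vehicle replicate 2 was the highest of its group and lay 0.07 below the lowest TBBC array. Without vehicle replicate 2 the difference was 0.64 (adjusted p = 0.131).

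Psmb10 read 3.98, 4.40 and 4.29 with vehicle and 4.48, 4.55 and 4.60 with TBBC, a difference of 0.32 ± 0.14 (adjusted p = 0.233). Vehicle replicate 1 was low, and without it the difference was 0.20 (adjusted p = 0.448). Psmb8 read 3.02, 2.87 and 3.17 with vehicle and 3.03, 3.26 and 3.57 with TBBC, a difference of 0.27 ± 0.17 (adjusted p = 0.381, 95% confidence interval -0.14 to 0.68). Its groups overlapped, since TBBC replicate 1 was at the level of vehicle replicate 1, and without TBBC replicate 3, the highest array, the difference was 0.125 (adjusted p = 0.701).

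Measured within each array, the exchange of subunits did not differ beyond the spread between arrays. The log2 ratio of Psmb8 to Psmb5 was -2.26, -2.41 and -1.98 with vehicle and -2.35, -2.39 and -2.06 with TBBC, a difference of -0.05 (exact permutation test, two-sided, p = 0.7). For Psmb9 to Psmb6 the ratio changed by -0.07 (exact p = 0.8). For Psmb10 to Psmb7 it changed by -0.24, from 0.71, 1.21 and 1.13 to 0.93, 0.65 and 0.76 (exact p = 0.3). Adjusted over the 3 pairs each p was 0.8, and 3 arrays against 3 cannot give an exact p below 0.1. The first 2 ratios changed sign when single arrays were left out, over ranges of -0.155 to 0.0675 and -0.192 to 0.0866. The third stayed negative, from -0.392 without vehicle replicate 1 to -0.142 without vehicle replicate 2. A ratio of different probes is not a molar ratio, so only its change is read.

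The interferon-stimulated response element core, GAAANNGAA on either strand, was found in 9 of 38 proteasome promoters (23.7%), against 9.71% of all promoters and 7.58% of those of tested genes. Among them were the promoters of Psmb8, Psmb10 and Psme2, and also those of Psma4, Psmb2, Psmb3, Psmd7, Psmd11 and Pomp. The gamma-interferon activated site TTCNNNGAA was found in 4 (10.5%, against 8.87% of all promoters). The Psmb10 promoter held 3 matches to the first motif, of which the upstream ones overlap, here in capitals within the 250 bases before the start (GRCr8, chr19:50743293-50743542, minus strand):
Psmb10 promoter: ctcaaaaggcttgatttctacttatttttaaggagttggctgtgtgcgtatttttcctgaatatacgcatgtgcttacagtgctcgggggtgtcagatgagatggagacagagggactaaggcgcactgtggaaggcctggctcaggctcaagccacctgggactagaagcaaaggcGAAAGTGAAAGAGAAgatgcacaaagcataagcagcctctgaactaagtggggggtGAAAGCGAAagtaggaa

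The 8 tested genes with this core had a median difference of 0.32, and the 29 without it 0.40. Genes of the interferon response, 17 of 18 tested, had a median difference of 0.24, with 0 called higher and 0 lower (2 higher and 1 lower at an unadjusted p under 0.05 in limma). Their differences ranged from -0.50 (Ifit2) to 1.02 (Usp18), 13 positive and 4 negative. The members with the highest signal, Mx2 and Stat2, differed by 0.15 and -0.05. Of the antigen presentation genes that work beside the immunoproteasome, 11 of 13 were tested, with a median of 0.18 and 0 called in either direction (1 higher at an unadjusted p under 0.05). These ranged from -0.24 (Calr) to 1.29 (RT1-CE10), 9 positive and 2 negative. Tapbp, named after its value was seen, differed by 0.86 with separate groups (adjusted p = 0.0701 in limma). B2m, the light chain of the class I molecule, read 9.03, 9.12 and 9.0 with vehicle and 9.14, 9.14 and 9.28 with TBBC, and the class I gene RT1-A1 differed by 0.02.

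Immune cells carry immunoproteasome subunits, so their markers are given beside these values. Of the T and NK cell markers, 11 of 15 were tested and 10 differences were negative, with summed signals of 4.01 to 4.86 times the 75th percentile in vehicle livers and 3.31 to 4.21 in TBBC livers. Of the B cell markers, 5 of 7 were tested and 4 differences were negative, with sums of 12.6 to 19.6 and 8.36 to 9.41. Myeloid markers, 13 of 14 tested, summed to 111 to 223 and 115 to 247. None of these markers was called in either direction. In whole liver, fewer cells of a type and less RNA per cell cannot be told apart. The part of these cells in the values of Psmb8, Psmb9 and Psmb10 was not tested.

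The 6 ATPases of the 19S base, which unfold the substrate, were positive with separate groups and had a median difference of 0.32; 0 were called in either direction, and 4 were higher at an unadjusted p under 0.05. Psmc4 differed most, by 0.47 ± 0.12 (adjusted p = 0.0864), reading 3.05, 3.24 and 3.06 with vehicle and 3.47, 3.65 and 3.64 with TBBC. Psmc2 differed least, by 0.25 ± 0.11 (adjusted p = 0.235), reading 5.38, 5.55 and 5.46 with vehicle and 5.64, 5.70 and 5.79 with TBBC. In both genes the whole TBBC group lay above the vehicle group. The others were Psmc3 at 0.44, Psmc5 at 0.35, Psmc1 at 0.29 and Psmc6 at 0.29. The dimmest probe of Psmc6 gave -0.03 where its other probes gave 0.29 and 0.31.

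The other base subunits were likewise positive with separate groups and uncalled, with a median of 0.27. Psmd2, a large scaffold that binds ubiquitin-like domains, read 5.97, 6.03 and 5.98 with vehicle and 6.38, 6.48 and 6.37 with TBBC, a difference of 0.42 ± 0.10 (adjusted p = 0.081). The arrays of each group lay close together, 0.34 apart between groups. Psmd1, the other scaffold, differed by 0.24 ± 0.11 (adjusted p = 0.233), reading 6.33, 6.50 and 6.41 with vehicle and 6.68, 6.70 and 6.58 with TBBC. Psmd4, a ubiquitin receptor, differed by 0.27 (adjusted p = 0.206).

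Of the 8 lid genes 7 were tested; all 7 were positive with separate groups, 1 was called higher and the median was 0.40. Psmd14 encodes the deubiquitinase that strips ubiquitin chains from the substrate. It rose from 1.05, 1.11 and 1.20 on the vehicle arrays to 1.64, 1.99 and 1.92 on the TBBC arrays, by 0.72 ± 0.13, 1.65-fold (adjusted p = 0.0438 in limma). The lowest TBBC array was 0.43 above the highest vehicle array.

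Psmd12 had the smallest lid difference, 0.21 ± 0.11 (adjusted p = 0.315). The arrays read 4.94, 5.04 and 5.18 with vehicle and 5.18, 5.31 and 5.30 with TBBC, so vehicle replicate 3 and TBBC replicate 1 nearly touched. The other probe of this gene gave 0.60, the widest gap between probes of the set. Vehicle replicate 2 was low on that probe, at 3.43 against 3.78 and 3.94 on vehicle replicates 1 and 3. Psmd8 differed by 0.55 (adjusted p = 0.0914), Psmd13 by 0.51 (adjusted p = 0.0741), Psmd3 by 0.40, Psmd7 by 0.33 and Psmd6 by 0.31.

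The 3 chaperones that assemble the 19S base, and are not part of the finished proteasome, diverged from one another, with 0 called in either direction. Psmd5 had the largest difference of the 41 genes, 0.78 ± 0.15, 1.72-fold, but just missed the threshold and was not called (adjusted p = 0.0505). It read 1.00, 0.86 and 0.84 with vehicle and 1.46, 1.95 and 1.64 with TBBC. The TBBC arrays were spread more widely but all lay above the vehicle arrays. It was called under 6 of the 17 other settings tried.

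Psmd9 had the smallest difference, 0.13 ± 0.14 (adjusted p = 0.59), reading 4.55, 4.57 and 4.80 with vehicle and 4.76, 4.60 and 4.95 with TBBC, with overlapping groups. Leaving out single arrays gave 0.04 (without TBBC replicate 3) to 0.22 (without TBBC replicate 2); it was 0.09 without vehicle replicate 1 and 0.21 without vehicle replicate 3. Psmd10, also known as gankyrin, is named because it was the only gene with a negative difference. It read 1.52, 1.55 and 1.47 with vehicle and 1.38, 1.18 and 1.22 with TBBC, a difference of -0.26 ± 0.11 (adjusted p = 0.218, 95% confidence interval -0.52 to 0.00). Its groups did not overlap, a separation below vehicle that 5502 of all 29326 features showed. The difference was negative under all 17 other settings, but its size depended on the scaling. It was -0.16 with median centring (adjusted p = 0.427 in limma) and -0.05 with spike-in scaling (adjusted p = 0.9). Without TBBC replicate 1 it was -0.32.

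The promoters of Psmd5 and Psmd10, at the ends of the range of differences, are set side by side as the 250 bases before the start (GRCr8, chr3:38548491-38548740 and chrX:109453606-109453855, both minus strand). Capitals mark CCAAT boxes on either strand; Psmd10 held 3, and the Psmd5 window held no match to any of the 4 motifs searched.
Psmd5 promoter: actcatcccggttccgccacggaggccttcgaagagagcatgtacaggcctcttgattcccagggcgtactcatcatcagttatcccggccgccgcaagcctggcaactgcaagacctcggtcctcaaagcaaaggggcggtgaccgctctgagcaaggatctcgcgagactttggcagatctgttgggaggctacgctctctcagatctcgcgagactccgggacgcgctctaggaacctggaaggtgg
Psmd10 promoter: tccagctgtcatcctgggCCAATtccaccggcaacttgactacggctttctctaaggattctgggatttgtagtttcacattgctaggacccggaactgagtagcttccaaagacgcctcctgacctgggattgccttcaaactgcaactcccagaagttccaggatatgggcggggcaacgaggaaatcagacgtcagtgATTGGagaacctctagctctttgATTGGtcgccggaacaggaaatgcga

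Of the activators, which open the core without the 19S cap, none was called, and the median difference was 0.22. Psme1 and Psme2 form the interferon-inducible PA28 ring of the cytosol. Psme1 read 6.40, 6.50 and 6.42 with vehicle and 6.72, 6.69 and 6.75 with TBBC (0.28 ± 0.10, adjusted p = 0.173). Psme2 read 5.94, 6.10 and 6.01 with vehicle and 6.18, 6.15 and 6.14 with TBBC (0.14 ± 0.10, adjusted p = 0.432, 95% confidence interval -0.10 to 0.39). The TBBC arrays were above the vehicle arrays for both, for Psme2 by 0.04.

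Psme3, the nuclear PA28 gamma subunit, read 3.03, 2.88 and 3.26 with vehicle and 3.31, 3.23 and 3.09 with TBBC (0.15 ± 0.14, adjusted p = 0.529), and its groups overlapped. The difference was 0.06 without vehicle replicate 2 and 0.26 without vehicle replicate 3. Psme4, which encodes PA200, read 2.20, 2.28 and 2.25 with vehicle and 2.39, 2.62 and 2.59 with TBBC (0.29 ± 0.11, adjusted p = 0.197), with separate groups. Pomp, the chaperone that matures the 20S core, read 6.61, 6.71 and 6.54 with vehicle and 6.86, 7.06 and 7.01 with TBBC. Its groups were separate, and the difference of 0.36 ± 0.11 (adjusted p = 0.139) equalled the median of the set.

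Where a gene had several probes they mostly gave like values. Of the 69 probes, 67 had a positive difference, the exceptions being the probe of Psmd10 and the dim probe of Psmc6. Of the 22 genes with several probes, 14 had differences within 0.15 of each other. With each probe tested on its own in limma, 6 proteasome probes were called, those of Psma7, Psmb6, Psmd14 and Psmd5 and 1 probe each of Psma1 and Psmd13.

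**Figure D4:**
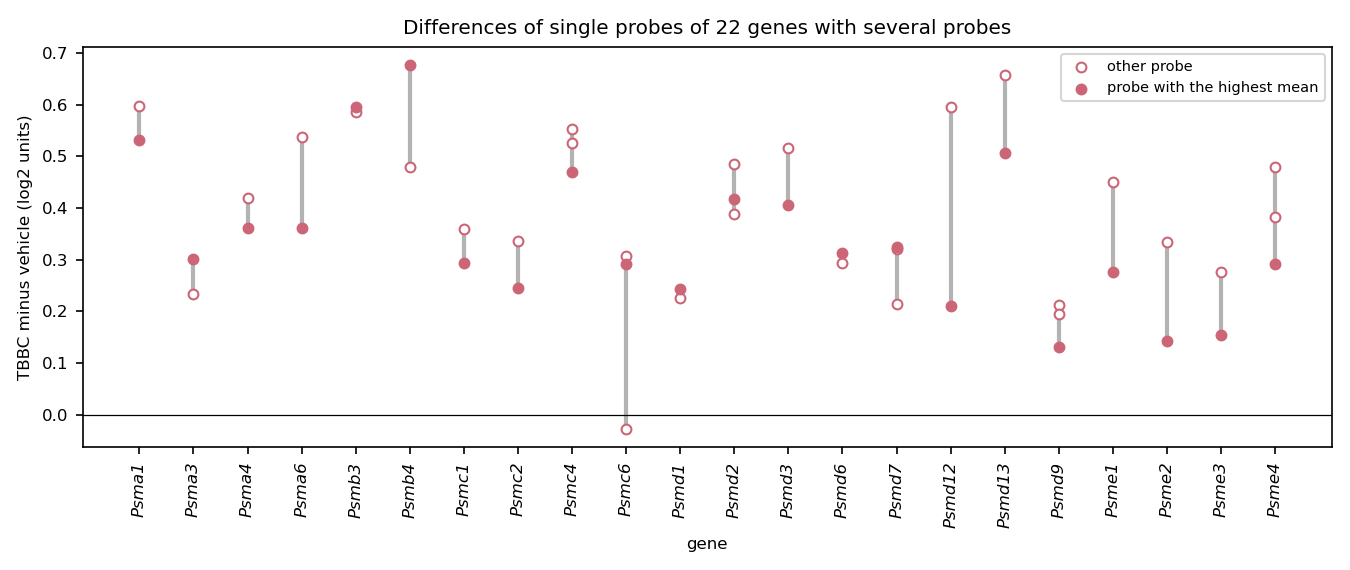
Differences of single probes (TBBC minus vehicle, log2 units, vertical axis) for the 22 proteasome genes with several probes (horizontal axis), with filled points for the probe with the highest mean signal, which represents the gene, and open points for its other probes. Psmd12 (0.21 and 0.60) and Psmc6 (down to -0.03) have the widest spans, and 1 probe lies below zero.

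Other parts and assembly factors of the proteasome had differences of like size. Of 15 such genes 8 were tested, with a median difference of 0.41, 1 called higher and 0 lower. Usp14, a deubiquitinase that binds the 19S base, rose from 1.98, 2.01 and 2.05 to 2.56, 2.64 and 2.85, by 0.67 ± 0.12, 1.59-fold (adjusted p = 0.0413). Every TBBC array was above every vehicle array. The 20S assembly chaperone Psmg2 and the ubiquitin receptor Adrm1, named after their values were seen, differed by 0.68 (adjusted p = 0.0647) and 0.52 (adjusted p = 0.081). Sem1, a small lid protein, and Psmf1, an inhibitor, each differed by -0.04, with overlapping groups.

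The genes that control or surround the proteasome had smaller median differences. Of 14 genes of the NRF1 pathway 11 were tested, with a median of 0.06 and 0 called in either direction (3 higher and 0 lower at an unadjusted p under 0.05 in limma). Their differences ranged from -0.24 (Sel1l) to 0.81 (Mafk), 7 positive and 4 negative. The brightest, Ngly1, which removes glycans from NRF1, and Syvn1, a ubiquitin ligase of the endoplasmic reticulum, differed by 0.06 and 0.00. Nfe2l1 itself, named after its value was seen, read 0.78, 0.81 and 0.50 with vehicle and 1.40, 1.20 and 1.21 with TBBC, a difference of 0.57 ± 0.13 (adjusted p = 0.0758) with separate groups. NRF1 is regulated largely through its protein, which an array does not measure. Nfe2l2, its relative NRF2, differed by -0.06.

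Of 14 genes for ubiquitin and its activation 12 were tested, with a median of 0.12 and 0 called in either direction (2 higher and 0 lower at an unadjusted p under 0.05). The polyubiquitin gene Ubb read 8.61, 8.75 and 8.56 with vehicle and 9.01, 9.17 and 8.95 with TBBC (0.40 ± 0.12, adjusted p = 0.117). Its groups did not overlap.

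**Figure D5:**
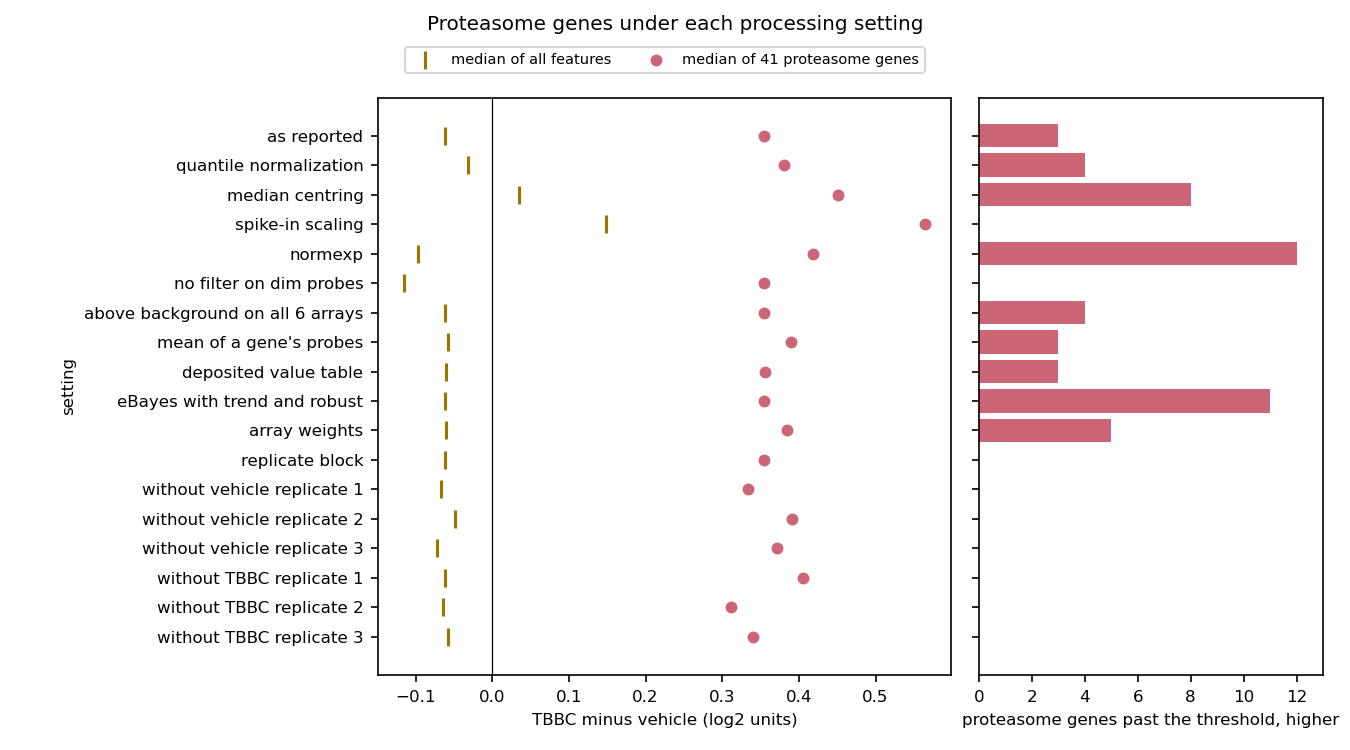
The 41 proteasome genes under the reported processing and 17 other settings (vertical axis): on the left the median difference, TBBC minus vehicle in log2 units, of the proteasome genes (points) and of all features (ticks), on the right the number of proteasome genes called higher. The median of the proteasome genes stays between 0.31 and 0.56 and above that of all features in each setting, while the number called runs from 0 to 12. For median centring, spike-in scaling and the deposited table the gap is fixed by construction. The trended and robust eBayes, the replicate block and the filter changes leave the differences of the proteasome genes unchanged.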

How the data were processed

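Liver RNA of 3 vehicle and 3 TBBC rats was measured on 1-colour Agilent arrays, 1 per animal. Per the file headers, the authors extracted spot intensity with Feature Extraction 10.7.1.1 (10.7 per the submitters' processing notes), a program that also subtracts the background. The deposited value table is that intensity divided by 1 constant per array, and was an alternative. Its scale is linear and uncentred, with column medians of 0.1012, 0.1077, 0.1033, 0.0977, 0.0972 and 0.0974.

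From these the log2 of the deposited processed intensity minus each array's 75th percentile was computed. The 1439 control spots and 25 probes with outlier flags were left out. A probe was kept where every array of 1 or both groups flagged it as well above background (37222 of 61537). On single arrays 36919 to 39386 probes were well above background. RefSeq accessions in a GRCr8 gene table named 28206 probes. The probe with the highest mean stood for its gene, and unnamed probes stood alone. The headers name rn4 for the array design, so no probe coordinates are given.

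TBBC was set against vehicle by limma (version 3.58.1, in R 4.3.3; lmFit, then eBayes, two-sided, no covariate), adjusted over all 29326 features, a step tested on simulated data. The 3 ratios were compared with exact permutation tests (scipy 1.17.1). The labels speak of separate animals, and the small number of arrays limits the precision. The genes and lists were chosen with earlier results of these data known, so no list has a test of its own. Values on every array are given for called genes, the largest and smallest difference of each structural class, the catalytic and immunoproteasome subunits, Pomp and Psme1 to Psme4; of each companion list, called genes are named, or the 2 brightest; a list and a gene that these rules would name are not reported here. Motif matches come from the RefSeq promoter table.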

Additional observations from a re-analysis of the deposited data

How the results depend on the processing

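The sign of all 41 proteasome differences was the same in each of the 17 other settings, 40 positive and 1 negative. In several of these the differences could not change. The trended and robust eBayes, the replicate block, and removing or tightening the filter on dim probes left each at its reported value. The deposited table differs by 1 constant per array, and its median was 0.356. What moved was the number called. Against 3 as reported, 8 were called with median centring, 12 with normexp background correction, 11 with a trended and robust eBayes and 5 with array weights. These fits called 2.54%, 2.76%, 2.38% and 2.43% of all features higher, against 1.68% as reported. With each probe on its own 6 probes were called, for which the share of all probes is not given. The count was 0 with spike-in scaling, with no filter on dim probes, or with a replicate block. Those 3 settings called 2.04%, 0.253% and 0.454% of all features higher. They left 34, 24 and 23 proteasome genes higher at an unadjusted p under 0.05 in limma, for which the share of all features is not given. With no filter more features (48957) shared the adjustment, but the count at an unadjusted p was also lower than the 30 as reported. The cause of the change in calls was not tested for any setting. The median difference, 0.36 as reported, was 0.45 with median centring, 0.56 with spike-in scaling and 0.42 with normexp. Features called, 902 as reported, were 1589 with normexp, 194 with no filter and 211 with the replicate block.

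Leaving out each array in turn gave 120 to 355 called features, 0 called proteasome genes in each case, and medians of 0.31 to 0.41. The Psmb8 to Psmb5 ratio then changed by -0.155 to 0.0675 (0.0111 without TBBC replicate 2, 0.0675 without vehicle replicate 3) and the Psmb9 to Psmb6 ratio by -0.192 to 0.0866 (0.0866 without vehicle replicate 2, 0.0728 without TBBC replicate 2), and the Psmb10 to Psmb7 ratio by -0.392 to -0.142; fewer arrays cannot give small exact p-values. Psma7, Psmb6 and Psmd14 each lost their call in 9 of 17 settings. Quantile normalization, the stricter filter, the mean of a gene's probes and the deposited table called 4, 4, 3 and 3. They called 1.82%, 1.91%, 1.68% and 1.68% of all features higher.

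Replicate numbers in the labels are shared between groups. The deviations of same-numbered arrays had correlations of 0.004, -0.022 and 0.144. Replicates 1 and 2 correlated better with another number, while the value for replicate 3 was the highest of all pairs. Summed myeloid markers were also highest on replicate 3 in both groups (223 with vehicle, 247 with TBBC). Whether same-numbered animals share more than a number was not tested. A slide block could not be run, since each group lies on 1 slide. Standard errors of the proteasome genes had a median of 0.116, against 0.158 for all features. Of the 41 genes tested, 30 were higher at an unadjusted p under 0.05 in limma, and 3 after adjustment. Whether array precision or the adjustment over all features limited the calls was not tested.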
